A study of Daphnia magna with 40 samples.

Results

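Juvenile Daphnia magna given fluoxetine were compared with juveniles given the acetone carrier alone. The comparison rested on 8 of the 40 arrays of the series, and these were chosen by the stage and treatment labels, 4 labelled fluoxetine at 40 µg/L (FX40) and 4 labelled acetone. Daphnia magna is a freshwater crustacean that reproduces clonally, and all animals came from one laboratory line, clone F. Each sample was a pool of 20 whole juveniles, less than a day old at the start and kept for 3 days in 0.5 L of hard water with algae as food. Both groups received acetone, in which fluoxetine was dissolved, and the treatments were set up in 4 replicates. Juveniles given fluvoxamine at 10 µg/L (FV10) or nonylphenol at 20 µg/L (NP20) or 60 µg/L (NP60) in the same carrier, 4 arrays each, shared the fit and served as further comparisons. For fluoxetine the series text names 80 ppb instead, and which dose applies could not be settled.

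Both fluoxetine and fluvoxamine inhibit the serotonin transporter, the membrane protein that returns released serotonin to nerve endings. In crustaceans serotonin acts as a transmitter and neurohormone and is known for roles in hormone release and behaviour. Nonylphenol is a breakdown product of surfactants with oestrogen-like activity in vertebrates and is not a serotonin reuptake inhibitor. The series asked whether reuptake inhibitors change the energy metabolism, development and reproduction of Daphnia.

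The arrays were one-colour Agilent arrays with 14338 probes. A level is given throughout as log2 of the scanner software's processed signal minus the 75th percentile of that signal on the same array, so a value of 0 lies at that percentile and a step of 1 is a doubling. A log2 change is the FX40 mean minus the acetone mean. The files give probe IDs without gene names, and 0 of them matched the RefSeq gene table, so pathways could not be described, no stage or tissue marker could be checked, and 4 probes are given by ID. Levels of different probes are not compared, because each probe binds with its own strength. In RNA from whole animals, fewer cells of a type and less RNA per cell cannot be told apart.

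Acetone replicate C stood apart in detection. The share of probes well above background ran between 73.3% and 82.8% on the FX40 arrays, against 78.5%, 79.5%, 57.9% and 79.0% on acetone arrays A to D. The group means were 78.3% ± 3.92 in FX40 and 73.7% ± 10.6 in acetone (SD, n = 4 each), and the difference of 4.52 percentage points had an exact permutation p of 0.686, two-sided. Without acetone C the difference was -0.754 percentage points. Acetone A was the brightest array, with a 75th percentile of 774 intensity units, against 352 to 425 on the FX40 arrays and 357 to 455 on the other acetone arrays. The log2 75th percentile averaged 8.57 ± 0.12 in FX40 and 8.88 ± 0.50 in acetone (SD, n = 4 each; exact permutation p = 0.314, two-sided), and with 4 arrays against 4 this test cannot go below 0.0286. Both p-values and those for the number of saturated probes, the negative-control signal and the number of outlier spots were at or above 0.786 after Benjamini-Hochberg adjustment over the 5 measures. In correlation of levels over the tested probes acetone C did not stand apart, at 0.940 to 0.967 with the other 7 arrays. Pairs within FX40 correlated at 0.939 to 0.964, pairs within acetone at 0.930 to 0.967, and pairs of 1 FX40 and 1 acetone array at 0.915 to 0.954, as a description over shared probes. Because acetone C stood apart in detection, the main counts below are given with and without it. The part of acetone C in them was not tested beyond that.

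**Figure D1:**
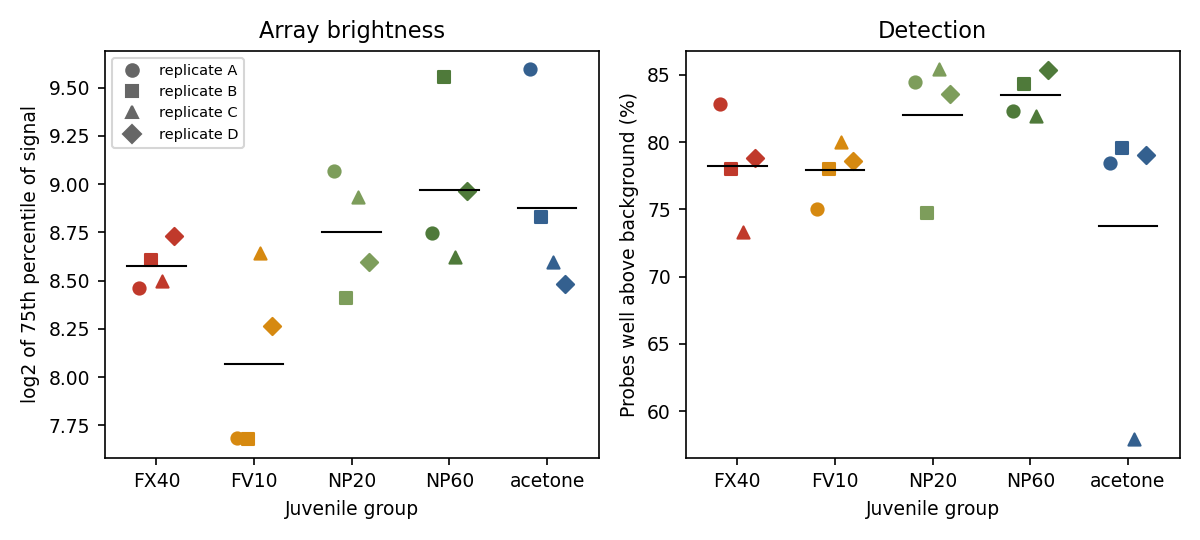
Brightness (log2 of the 75th percentile of the processed signal, left) and share of probes well above background (%, right) of the 20 juvenile arrays by group, with 1 point per array, its shape marking the replicate letter, and a line at the group mean. Acetone C lies at 57.9% detection, below all FX40 arrays, and acetone A is the brightest array of the 5 groups.

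A single probe, DM08774P1, differed between FX40 and acetone juveniles at an adjusted p under 0.05, and it rose. It is 0.00776% of the 12880 probes tested with limma in a fit of all 20 juvenile arrays, with Benjamini-Hochberg adjustment. Over the tested probes the median size of the estimated change was 0.32 on the log2 scale and the median change 0.05. A change of at least 2-fold was estimated for 958 probes in the higher direction and 492 in the lower. The median half-width of the 95% interval of a probe's change was 0.88. For 4381 of the 12880 probes that interval, taken singly, lay wholly inside a 2-fold change in either direction.

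DM08774P1 is a dim probe. Its levels were -1.09, -2.35, -1.18 and -1.38 on FX40 arrays A to D, against -3.34, -3.41, -3.72 and -4.07 on acetone arrays A to D. All FX40 values lay above all acetone values, with FX40 B nearest to them. The log2 change was 2.14 (SE 0.30, limma adjusted p = 0.0174), with a 95% interval of ± 0.63 before adjustment. The probe was well above background on 4 of 4 FX40 and 2 of 4 acetone arrays, so the size is uncertain. In unscaled signal the groups touched, since FX40 B had 76.5 and acetone A 76.6 intensity units, while the other arrays had 160 to 166 in FX40 and 21.2 to 42.7 in acetone. On the 2 slides that held both groups the difference was 1.37 (FX40 B minus acetone C) and 2.24 (FX40 C minus acetone B).

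The call of DM08774P1 rested on single arrays. Its change stayed between 1.99 and 2.42 when each array was left out in turn. The limma adjusted p was 0.107 without acetone C and 0.124 without acetone D. It was 0.135, 0.137 and 0.115 without FX40 A, C and D, and in these 5 fits 0 probes were called. Without acetone A, acetone B or FX40 B it was 0.0328, 0.0269 and 0.00197, and 2, 2 and 3 probes were called. With normexp background correction the change was 0.42 (adjusted p = 0.683), and with slide as a block it was 1.98 (adjusted p = 0.445). The normexp setting added an offset of 50 to the signals and moved the median change of all tested probes to -0.37. The part of these in the smaller change of this dim probe was not tested.

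For DM08774P1 no difference between FX40 and another treated group passed the threshold. Its FX40 mean was -1.50 ± 0.58 and its FV10 mean -1.66 ± 0.38, while NP20 averaged -2.40 ± 0.38, NP60 averaged -2.76 ± 0.28 and acetone averaged -3.63 ± 0.33 (SD, n = 4 each). All FV10, NP20 and NP60 arrays lay above all acetone arrays too, at -2.97 or higher against -3.34 or lower. Separation from acetone at this probe was therefore not particular to FX40. In direct tests FX40 differed from FV10 by 0.16 (SE 0.30, limma adjusted p = 0.802), from NP20 by 0.90 (SE 0.30, adjusted p = 0.995) and from NP60 by 1.26 (SE 0.30, adjusted p = 0.997). The unadjusted p-values were 0.601, 0.00794 and 0.000562, so the FX40 level was above both nonylphenol levels before, but not after, adjustment over all probes. In adults the same probe was well above background on 2 of 4 FX40 and 1 of 4 acetone arrays, so its change there, and the difference between the stages, could not be measured.

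**Figure D2:**
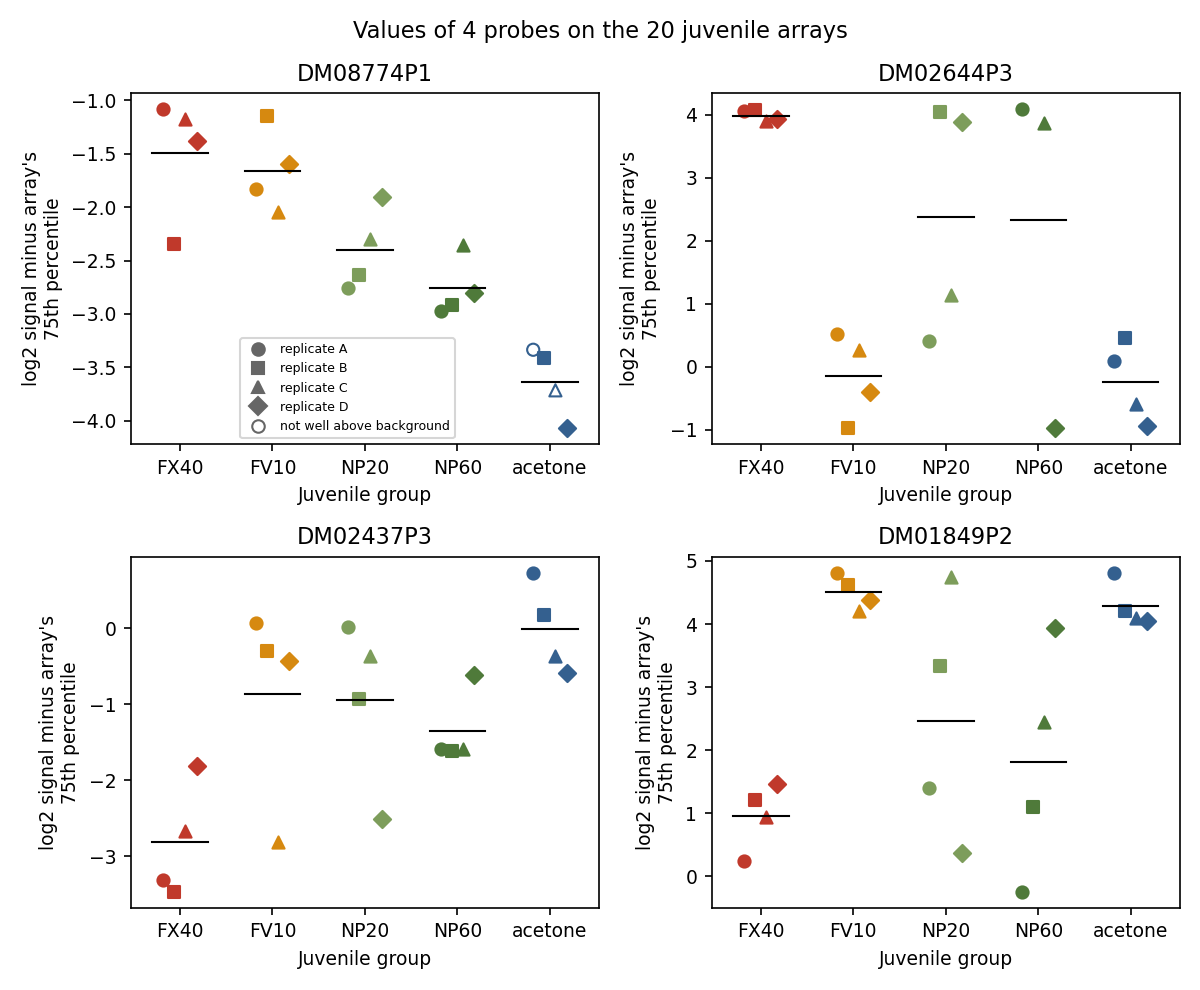
Scaled log2 levels, with 0 at the 75th percentile of each array, for DM08774P1, DM02644P3, DM02437P3 and DM01849P2 on the 20 juvenile arrays, with 1 point per array, its shape marking the replicate letter, open points not well above background and a line at the group mean. FX40 and acetone do not overlap for any of the 4 probes, and the nonylphenol groups of DM02644P3 and DM01849P2 hold arrays near the FX40 level and arrays near the acetone level.

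DM02644P3 had the largest estimated difference in the higher direction among probes well above background and unsaturated on all 8 arrays, at an unadjusted p under 0.05 and with groups that did not overlap (142 probes). Its levels were 4.05, 4.07, 3.90 and 3.93 on FX40 arrays A to D, against 0.09, 0.46, -0.59 and -0.94 on acetone arrays A to D. The FX40 pools lay close together and far above the acetone pools. The difference was 4.23 (SE 0.94), and it missed the threshold in the fit of 20 arrays (limma adjusted p = 0.219). The nonylphenol groups, which enter the shared spread, varied widely at this probe. NP20 arrays A to D had 0.41, 4.05, 1.14 and 3.89, and NP60 arrays A, C and D had 4.09, 3.87 and -0.98, the value of NP60 B being left out as an outlier spot. Each nonylphenol group thus held pools at the FX40 level and pools near the acetone level. With only the 8 FX40 and acetone arrays in the fit, the same difference had an SE of 0.32 and an adjusted p of 0.0028. FV10 arrays lay between -0.97 and 0.53, and FX40 minus FV10 was 4.13 (SE 0.94, adjusted p = 0.115).

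DM01849P2 had the largest estimated difference in the lower direction under the same conditions (63 probes). Probes outside these conditions had larger estimates in both directions. Its levels were 0.24, 1.21, 0.93 and 1.46 on FX40 arrays A to D, against 4.81, 4.20, 4.09 and 4.05 on acetone arrays A to D. The groups were separated by more than the whole range of either. The difference was -3.33 (SE 0.81, limma adjusted p = 0.234), or with the 8 arrays alone an SE of 0.32 and an adjusted p of 0.0094. FV10 arrays had 4.21 to 4.81, the level of acetone, while NP20 arrays ran from 0.38 to 4.74 and NP60 arrays from -0.25 to 3.94.

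DM02437P3 had the smallest p among probes with a lower FX40 mean. It had -3.32, -3.47, -2.66 and -1.82 on FX40 arrays A to D, against 0.73, 0.17, -0.36 and -0.59 on acetone arrays A to D. The groups did not overlap, and the probe was well above background on all 8 arrays. The difference was -2.81 (SE 0.60, limma adjusted p = 0.216). One FV10 array (C, at -2.81) and 1 NP20 array (D, at -2.51) lay inside the FX40 range, and all NP60 arrays lay above it, at -1.62 to -0.61. Leaving out acetone C changed the differences of these 3 probes to 4.12, -3.40 and -2.92, with adjusted p-values of 0.358, 0.362 and 0.242.

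The fluoxetine changes of DM02644P3 and DM01849P2 in juveniles were set against those in adults, exposed over several broods, in a limma fit of all 40 arrays. The adult changes were 1.52 (SE 1.37) for DM02644P3 and 2.18 (SE 1.16) for DM01849P2, each from 3 adult FX40 and 4 adult acetone arrays, since 1 FX40 value was left out as an outlier spot. DM01849P2 was well above background on 3 of the 4 adult acetone arrays. The juvenile minus the adult change was 2.71 for DM02644P3 (SE 1.86, adjusted p = 0.572) and -5.51 for DM01849P2 (SE 1.58, adjusted p = 0.104), neither past the threshold. DM02437P3 was well above background on 3 of 4 adult FX40 and 0 of 4 adult acetone arrays. Its adult estimate of 0.94 (SE 0.72) is therefore no measured fold. The juvenile minus the adult change of DM02437P3 was -3.75 (SE 1.02, limma adjusted p = 0.0778), of uncertain size and not past the threshold.

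The fit of the 8 arrays alone called 14 of the 12880 tested probes, 11 higher and 3 lower in FX40, with changes of 2.51 to 4.59 in size. DM08774P1 was not among them (adjusted p = 0.0603). All 14 had an unadjusted p under 0.05 with 20 arrays, and for all 14 the SE was larger there, at a median of 0.80 against 0.33. The 14 were chosen by their p-values in the 8 arrays, which also give the estimate in the larger fit. A low p and a larger SE there are therefore partly fixed by that choice. Over all tested probes the median SE was 0.42 with 20 arrays and 0.34 with 8. The SD within the nonylphenol groups had a median of 1.58 over these 14 probes and of 0.50 over all tested probes. Of the 14, 7 were well above background on all 8 arrays. For 0 of them did the FX40 values lie beyond all 16 other juvenile values.

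Probes at which FX40 was beyond every other juvenile array were few. Of 12431 probes with a value on all 20 arrays, 3 were higher on the 4 FX40 arrays than on the other 16 and 1 was lower, 0.0322% in all. The same share was 1.39% for FV10, 0.0402% for NP20, 0.0241% for NP60 and 0.153% for acetone. The FX40 share thus lay between those of NP60 and NP20. Chance alone also puts some probes of any 4 arrays beyond the other 16, so these probes are not read as a trait of FX40.

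Low unadjusted p-values were more frequent than 5% of the probes and lay mostly on the higher side. At an unadjusted p under 0.05 stood 1085 probes (8.42%), against 644 at 5%, and 846 were higher (6.57%) and 239 lower (1.86%) in FX40. Without acetone C there were 863, of which 663 were higher and 200 lower, and 707 probes were at an unadjusted p under 0.05 with the same sign with and without it. The share that was higher depended on scaling, with 677 higher and 320 lower after quantile normalization, 684 and 313 in the deposited log2 table, 267 and 185 after normexp correction and 875 and 528 after normexp correction with quantile normalization. The higher side stayed the larger in each.

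The excess lay in the dimmer probes. The tested probes were put in quartiles by their mean level over the 20 arrays. In the dimmest quartile 10.4% were at an unadjusted p under 0.05, in the next 10.8%, then 7.76%, and 4.75% in the brightest. Without acetone C the shares were 9.22%, 7.30%, 5.78% and 4.50%. The median change was 0.11, 0.16, 0.01 and -0.02 from the dimmest to the brightest quartile, and 0.01, 0.09, -0.01 and -0.02 without acetone C. In the second quartile 53.8% of probes were well above background on acetone C, against 89.7% or more on each of the other 7 arrays. In the brightest quartile the share was 99.9% or more on all 8 arrays. The part of detection on acetone C in the shift of the dimmer probes was not tested beyond leaving that array out.

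**Figure D3:**
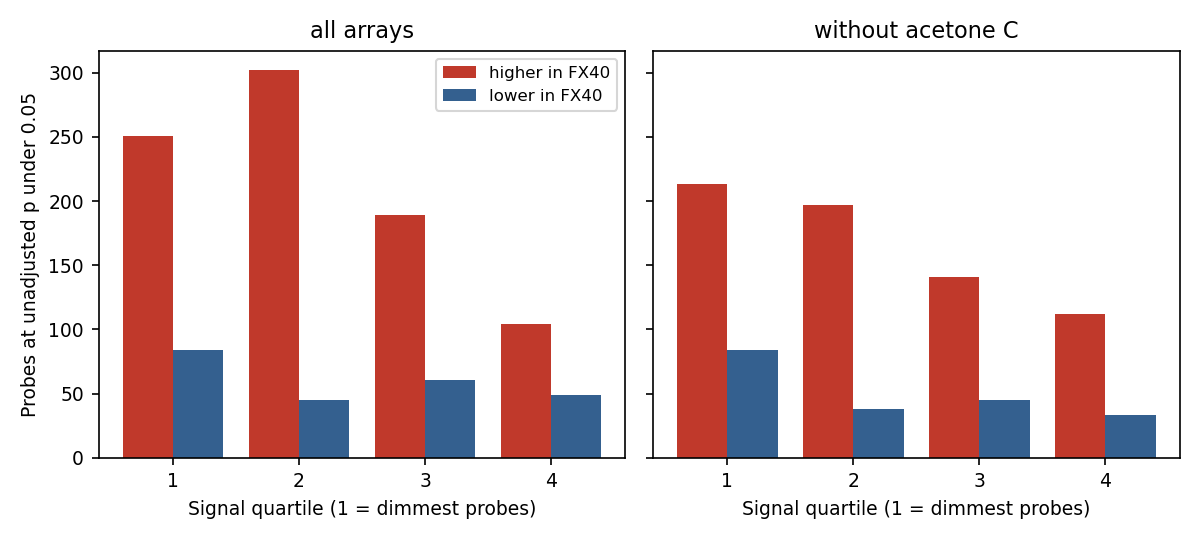
Number of probes at an unadjusted p under 0.05 by signal quartile (1 the dimmest), higher in FX40 (red) or lower in FX40 (blue), with all arrays (left) and without acetone C (right). The second quartile holds 302 higher and 45 lower probes with all arrays, and 197 and 38 without acetone C, while the brightest holds 104 and 49, and 112 and 33.

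**Figure D4:**
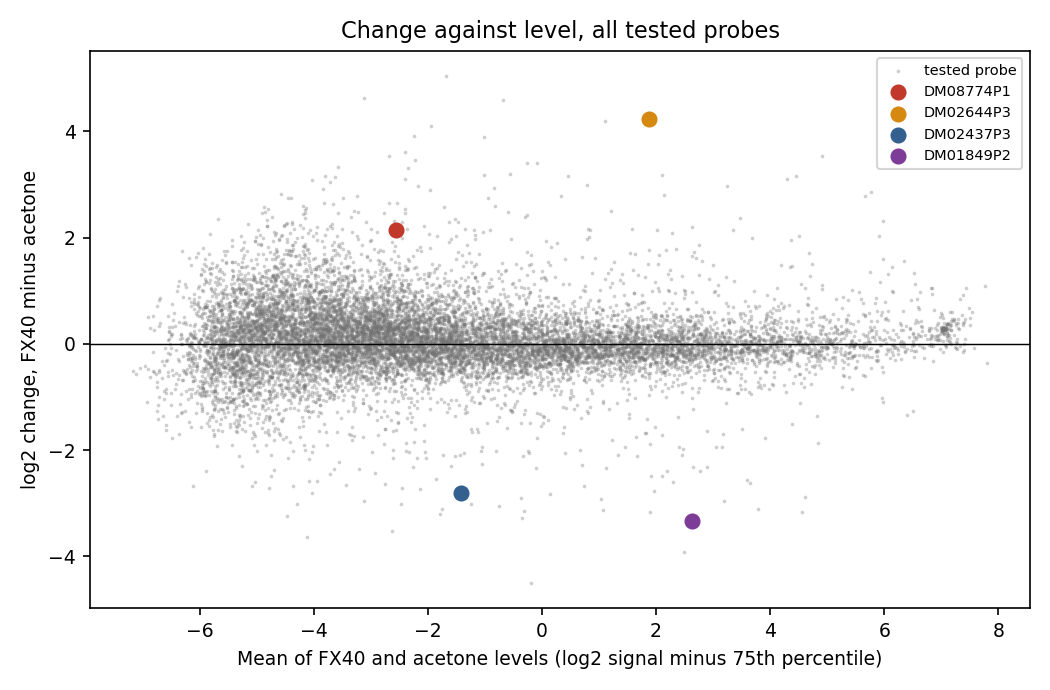
Change between FX40 and acetone (log2) against the mean of the levels of both groups (log2 signal minus 75th percentile) for the 12880 tested probes, 1 grey point per probe, with 4 probes in colour. Changes scatter more widely among dim probes, and DM02644P3 and DM01849P2, chosen for their large estimates, lie at 4.23 and -3.33.

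Separation of the groups, which is not adjusted over probes, was more common than calls, which are. The 4 FX40 values lay beyond the 4 acetone values in 834 of 12561 probes with complete values (6.64%), above them in 560 (4.46%) and below them in 274 (2.18%). By chance alone, 4 values against 4 would be separate in either direction in a share of 0.0286 of probes, and 4 against 3 in a larger share. Without acetone C the groups were separate in 1132 of 12574 probes (9.00%), 693 above (5.51%) and 439 below (3.49%), where 3 acetone values are easier to clear than 4. Of the 834, 398 changed at least 2-fold by estimate, 300 of these higher and 98 lower in FX40, and 140 of the 398 were well above background on all 8 arrays. Of the 834 probes, 472 had an unadjusted p under 0.05.

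Detection was also uneven between the groups, and for FX40 the unevenness was smaller without acetone C. Well above background on 4 of 4 FX40 and 0 of 4 acetone arrays were 58 of 14338 probes, and 3 probes had the opposite pattern. Without acetone C these were 60 and 49. FV10, NP20 and NP60 gave 25, 51 and 49 probes detected on all treated and no acetone array, and 2, 0 and 0 the other way, with the same acetone arrays. Without acetone C these were 25, 53 and 52, and 28, 5 and 1 the other way. The 58 probes had a median estimated change of 1.79, from 0.50 to 4.62. Their choice by detection on the same arrays fixes the direction, and these sizes are no measured folds, since the acetone signals were not well above background.

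Replicate spread was described by the SD of each probe within a group. Its median over probes was 0.42 for FX40, against 0.49 for acetone and 0.47 for acetone without C. The medians of the other treated groups were 0.67 (FV10), 0.46 (NP20) and 0.51 (NP60). The SD was smaller in FX40 than in acetone for 58.2% of probes, and for 57.2% without acetone C. For the 848 tested probes with 2 spots, spots of the same probe on an array had a median SD of 0.37. The averaged values of these probes had a median SD of 0.34 between the FX40 pools. An average of 2 spots varies less than a single spot, so these medians are not directly comparable. These SDs are descriptions without a test.

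Direct comparisons with the other treated juveniles do not use the acetone arrays in the contrast. FX40 and FV10 differed at 2 of 12880 probes in limma (0.0155%), 1 higher and 1 lower in FX40, with 2216 at an unadjusted p under 0.05. Against NP20 and NP60 limma called 0 probes each (0%), with 556 and 468 at an unadjusted p under 0.05, fewer than 644. Against the mean of FV10, NP20 and NP60 it called 0 (0%), and 527 had an unadjusted p under 0.05. The 95% interval of that difference had a median half-width of 0.72. For 6898 probes (53.6%) that interval lay inside a 2-fold change in either direction. The count against FV10 was 884, 6 and 0 when FV10 C, D or A was left out, and 4, 1 and 0 when FX40 A, D or B was left out. The FV10 arrays had a 75th percentile of 205, 205, 400 and 308 intensity units (A to D), and the part of brightness in the FV10 comparison was not tested beyond a fit with it as a covariate, which called 7 probes. The labelled doses of the compounds differ, so these values set the groups side by side and do not compare the compounds at a matched dose.

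On the array slides, 2 held both groups, and each gave 1 pair. On the slide of FX40 B and acetone C the median difference over tested probes was 0.18, with 63.3% of probes higher in FX40. On the slide of FX40 C and acetone B it was 0.03, with 51.9% higher. DM02644P3 differed by 4.66 and 3.44 on these slides, DM01849P2 by -2.88 and -3.27, and DM02437P3 by -3.11 and -2.83. FX40 and acetone do not overlap at these probes, so the direction in each pair was fixed in advance and only sizes are described. FX40 A and D and acetone A and D lay on slides without the other group.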

How the data were processed

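Per the file headers, the scanner images were read by Agilent's Feature Extraction (version 10.7.3.1), and the deposited intensity of each spot was background-subtracted and detrended within its array. The authors' deposited table holds log2 values with scale, centring and direction unstated. Set against the scanner files, its juvenile columns followed quantile-normalized log2 signals centred per probe (r of 0.999 to 1.00), in the same direction, with column medians from -0.0713 to 0.0931. Any further step stays unknown, and it served as an alternative.

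Of 15744 spots, 15208 were not controls and held 14338 probes, 870 of them with 2 spots. Outlier spots were left out, saturated spots kept and spots of a probe averaged. A probe was tested if well above background on at least 4 of the 20 juvenile arrays. limma 3.58.1 in R 4.3.3 fitted the 5 juvenile groups together (lmFit and eBayes). p-values were adjusted by Benjamini-Hochberg over all tested probes. The number of arrays limits the precision.

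The 4 probes given by ID were, in each direction, the one with the smallest p and the one with the largest change among probes well above background and unsaturated on all 8 arrays, at an unadjusted p under 0.05, with groups that do not overlap. Planned cell type marker lists had 0 matched probes. The members, rules and alternatives were chosen with earlier results of these data known. The labels do not state separate cultures beyond replicated treatments, so p-values measure the spread between these pools. Alternatives were normexp correction (offset 50, on median signals, as the files hold no mean spot signal), quantile normalization, both together, the deposited table, other filters, the 8 arrays alone, blocks for slide and replicate letter, brightness as a covariate, array weights, outlier spots kept and each array left out.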

Additional observations from a re-analysis of the deposited data

Results flagged for a closer look

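Of 18 sets of 4 values checked in FX40 and acetone juveniles (5 array measures and the 4 probes named above), 2 held a value far from the other 3 by Dixon's criterion, where chance gives about 1 in 20. The share of probes well above background was 57.9% on acetone C, against 78.5% to 79.5% on the other acetone arrays. The number of non-control spots marked as outliers was 219 on FX40 C, against 6 to 25 on the other FX40 arrays. With outlier spots kept, 1 probe was called, as without them, and 1089 were at an unadjusted p under 0.05.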

How the results depend on the processing

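The count of 1 called probe was 0 after normexp correction with quantile normalization, with only probes well above background on all 8 arrays (499 at an unadjusted p under 0.05, from 7842 tested), with a slide block and with array brightness as covariate. The filter to probes well above background on all 8 arrays left out DM08774P1 before the test, so its call could not be repeated there. The count was 14 with the 8 arrays alone and 25 with array weights (1875 at an unadjusted p under 0.05), and with single arrays left out it ran from 0 to 3. Normexp correction also called 1 probe, not DM08774P1, and shifted the median of all probes to -0.37, with 452 at an unadjusted p under 0.05. With single arrays left out that number ran from 739 to 1187. DM08774P1 kept its direction in all 20 alternatives and passed the threshold in 10. The other 3 probes kept theirs in all 21, and each passed in 1, DM02644P3 and DM01849P2 with the 8 arrays alone and DM02437P3 with array weights (adjusted p = 0.034). FX40 and acetone do not overlap at any of these 4 probes, so leaving out an array could not reverse a direction. Against FV10 the count of 2 was 4 after quantile normalization, 0 with a slide block, 7 with array brightness as covariate and 0 to 884 with single arrays left out. The counts against NP20, NP60 and the mean of the 3 other treated groups were 0 in every alternative run for them. Leaving out single arrays, the FX40 minus acetone difference ran from -0.434 to -0.0624 in log2 75th percentile and from -0.754 to 6.46 points in detection. Without acetone C, an alternative chosen after seeing the data for these counts, FX40 lay above the acetone range in 693 probes and below it in 439, and 60 probes were detected on all FX40 and no acetone arrays and 49 the other way. The causes of these moves were not tested, beyond the fewer probes or arrays in the fits that leave some out.

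Same-lettered FX40 and acetone arrays deviated together at correlations of -0.11 to 0.15, and in 1 of 4 letters was the own letter the best match, so the letters were not taken as pairs. With the replicate block 3 probes were called against acetone and 0 against FV10, and DM08774P1 kept its call (adjusted p = 0.0387). Dim signals and 4 arrays a group limit what could be detected: in the dimmest quartile the median 95% half-width was 1.20, against 0.66 in the brightest.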
